A study of Rattus norvegicus with 46 samples.

Results

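The genes described here are 8 genes of the muscle stretch response: Ankrd1, Ankrd2, Csrp3, Fhl1, Nrap, Xirp2, Smpx and Mustn1. They were listed by name, and each was represented by the Affymetrix probe set that the platform annotation gives it. Each of the 8 genes had exactly 1 such probe set, so no choice between probe sets was needed, and all 8 passed the filter on dim probe sets. They are 8 of 14317 genes with a probe set of their own on the array and 8 of the 9289 genes that were tested. RNA came from the proximal gastrocnemius of 23 female Sprague-Dawley rats kept in an experimental intensive care model, with 1 array for each leg and 46 arrays in all. Every rat was anaesthetized with isoflurane, paralysed with the non-depolarizing neuromuscular blocking agent α-cobrotoxin and mechanically ventilated. A motor-driven lever flexed and extended the ankle of the left, loaded leg at 13.3 cycles per min, for 6 h at the shortest duration and for 12 h per day otherwise, while the other, unloaded leg stayed still. The durations fall into 3 windows, 6 h to 4 d with 13 rats, 5 to 8 d with 4 rats and 9 to 14 d with 6 rats. The age of the rats and the exact duration of each one are not given in the sources used here, and no untreated rat was part of the design. An unloaded leg is therefore a paralysed leg, and all comparisons between windows are among paralysed, ventilated animals.

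The legs of a rat were matched by their label numbers, and a rat is named here by the number of its unloaded leg. Values are log2 expression as the authors deposited them, so differences are log2 fold changes. A level is read only within a gene, since different probe sets bind with different strength. The mean of 6 muscle-defining genes (Acta1, Ckm, Mb, Ttn, Ryr1 and Des) lay between 13.42 and 13.83 on every array, near the top of the scale, which reaches 14.38. Muscle biopsies are bulk tissue, so a lower share of a cell or fibre type and less RNA per cell cannot be told apart. A code in the sample descriptions splits the rats into 5 sets of unstated meaning, and only the third set, with 10 rats, spans all windows. The sets 1, 2 and 4 hold only rats of 6 h to 4 d (9 rats) and the fifth holds only rats of the later windows (4 rats). In 17 of the 23 rats at least 1 leg lay closer, in its deviations from the group mean, to its own partner than to any other opposite leg of its window. In the 6 rats 17, 19, 21, 23, 27 and 51 neither did, and their pairing is uncertain. The loaded arrays of rats 21 and 27 were the most alike of 198 pairs of arrays within a group, with an SD of 0.195 over all probe sets where the next pair had 0.227 and the median pair 0.389. Leg comparisons were repeated without these rats. The number of arrays limits the precision, and only 4 rats stand for 5 to 8 d.

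Muscle fibres sense tension at the Z-disc, at the elastic protein titin and at the sites where myofibrils attach to the membrane. Ankrd1 and Ankrd2 encode muscle ankyrin repeat proteins that bind titin in the I-band and can also enter the nucleus. Csrp3 (muscle LIM protein) and Fhl1, built almost wholly of LIM domains, encode adaptors of the sarcomere. Nrap and Xirp2 encode actin-binding proteins of myofibril assembly and of the junctions where myofibrils end. Smpx encodes a small protein of the costamere region, and Mustn1 a small protein linked to muscle differentiation and regeneration. Ankrd2 and Csrp3 are known to be more abundant in slow than in fast fibres, and Ankrd1 is known for its rise in denervated, stretched or injured muscle.

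For 5 of the 8 genes RefSeq promoter windows on the rat assembly GRCr8 were at hand, 6 windows in all because Fhl1 has 2 annotated starts here. No window was at hand for Ankrd1, Csrp3 or Nrap, so these were not searched. Those of Ankrd2 and Fhl1 are shown because these genes moved together between the legs of a rat, and those of Xirp2 and Smpx because they moved in opposite directions with time. Each is the 250 bases upstream of an annotated start, written 5′ to 3′ on the gene's own strand.
Ankrd2, chr1:250796169-250796418, plus strand: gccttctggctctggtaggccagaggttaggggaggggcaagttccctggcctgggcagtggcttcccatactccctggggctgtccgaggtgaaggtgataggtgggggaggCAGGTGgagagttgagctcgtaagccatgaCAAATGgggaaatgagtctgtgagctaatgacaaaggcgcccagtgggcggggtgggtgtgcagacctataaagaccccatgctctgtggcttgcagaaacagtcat
Fhl1, chrX:139638246-139638495, plus strand: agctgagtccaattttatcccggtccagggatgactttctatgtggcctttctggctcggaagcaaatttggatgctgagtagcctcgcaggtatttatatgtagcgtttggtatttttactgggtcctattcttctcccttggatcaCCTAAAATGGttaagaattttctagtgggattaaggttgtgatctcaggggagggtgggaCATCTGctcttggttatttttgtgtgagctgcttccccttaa
Xirp2, chr3:72533936-72534185, plus strand: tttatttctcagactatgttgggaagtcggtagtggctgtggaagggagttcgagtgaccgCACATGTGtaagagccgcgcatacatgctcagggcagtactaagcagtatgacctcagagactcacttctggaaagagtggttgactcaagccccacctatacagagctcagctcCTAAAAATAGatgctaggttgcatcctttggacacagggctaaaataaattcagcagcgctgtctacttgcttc
Smpx, chrX:41107138-41107387, minus strand: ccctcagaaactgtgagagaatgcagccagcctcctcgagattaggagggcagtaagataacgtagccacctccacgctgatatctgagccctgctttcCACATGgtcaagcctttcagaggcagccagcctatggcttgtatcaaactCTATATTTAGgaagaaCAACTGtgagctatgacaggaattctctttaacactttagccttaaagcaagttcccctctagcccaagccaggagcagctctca
Capitals mark matches, on either strand, to 4 motifs: CATTCC (the M-CAT element of TEAD factors), CANNTG (the E-box of myogenic factors), the CArG box of SRF and the MEF2 box. Where matches overlap, as for the E-boxes of Xirp2, the capitals run on. The M-CAT element was found in none of the 6 windows, against 12.1% of all 33465 RefSeq windows of that length. At that share so few windows cannot show a lack of the element, and Ankrd1 is not among them. E-boxes were found in all 6, against 65.5% of all windows. Single MEF2 boxes lay upstream of Xirp2 (74 to 65 bases before the start) and Smpx (101 to 92 bases), and 1.68% of all windows hold one. The first Fhl1 window held a CArG box 102 to 93 bases before the start, a motif found in 1.50% of all windows. These are descriptions of letters, and no binding was measured.

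The clearest movement of the 8 genes was between the windows of duration and not between the legs. Windows and code sets overlap, so set and window can be told apart only in part. Ankrd1 was 19.6-fold to 24.7-fold higher from 5 d on than before, in both legs, and by size this was the top difference of all 9289 genes at 5 to 8 d. Csrp3 was 5.00-fold to 5.48-fold higher in the loaded legs over the same step. In the unloaded legs it stood 2.62-fold to 3.04-fold higher and did not pass, and the rises of the legs did not differ by the test. Smpx rose in both legs by 9 to 14 d. Xirp2 fell by a small amount in the unloaded legs. Between the legs of the same rat, none of the 8 genes passed the test, although Ankrd1 was 1.51-fold higher in the loaded leg on average. The leg differences of Ankrd2, Csrp3 and Fhl1 were large in single rats, some of them of uncertain pairing, and ran in parallel with those of slow-fibre genes.

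**Figure D1:**
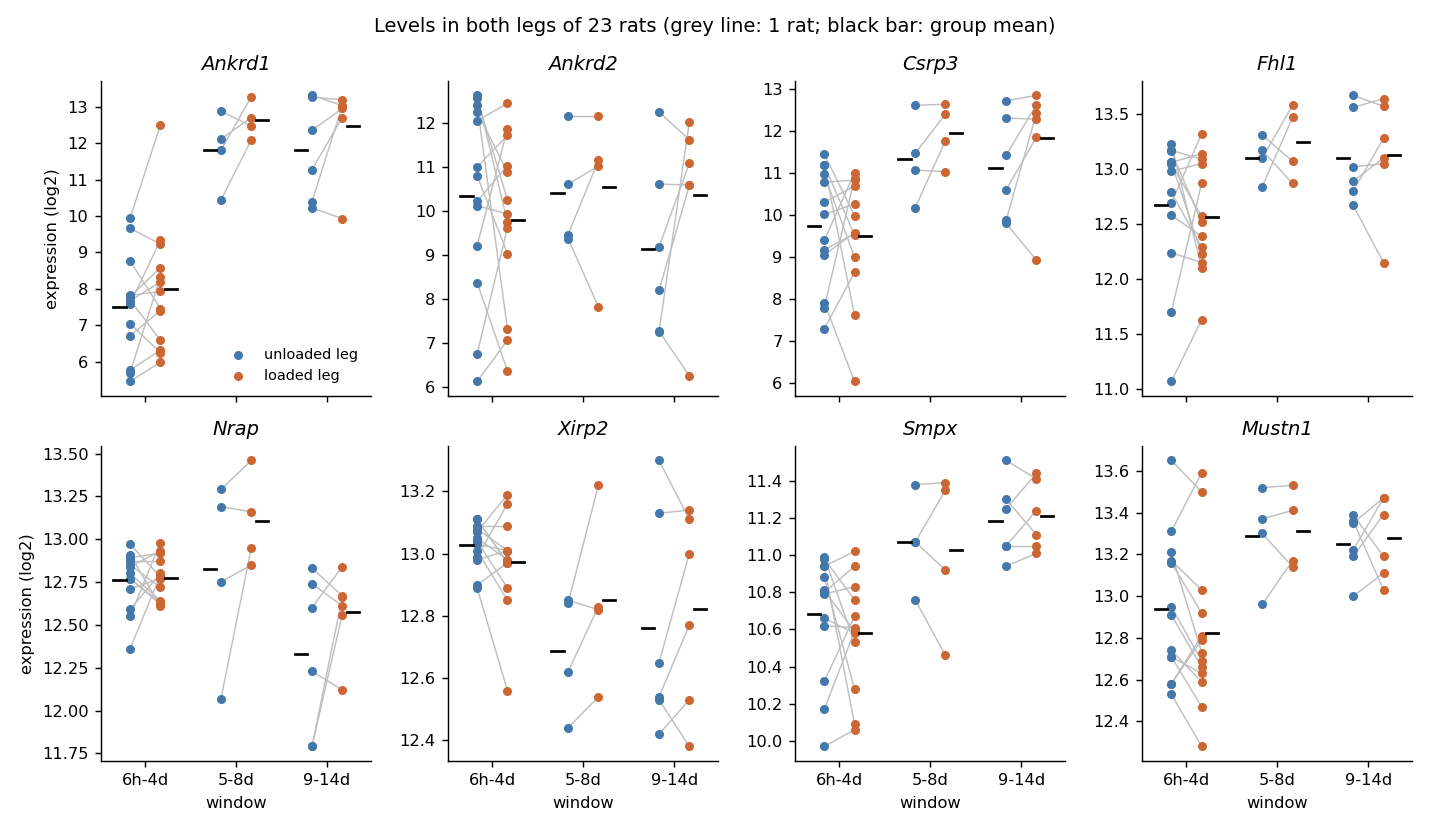
Log2 expression of the 8 genes (vertical axes, 1 panel per gene, scales differ) in the unloaded and loaded legs of 23 rats by window of duration; each dot is 1 array, grey lines join the legs of a rat and black bars are group means. Ankrd1 lies below 10 in all unloaded legs at 6 h to 4 d and above 10 in all later ones, while the Ankrd2 levels of all 6 groups overlap.

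The passive loading comparison asked whether moving the ankle changed these genes in the paralysed muscle. It was fitted with limma, with the rat as a block, and Benjamini-Hochberg adjustment over all 9289 genes at a threshold of 0.05. Over the 23 rats 0 of the 8 genes passed, where 2.33% of all genes did (0.850% higher and 1.47% lower in the loaded leg), and 1 of them, Ankrd1, had an unadjusted p under 0.05 by this test. The median difference of the 8 genes was 0.02, against -0.01 for all genes. Within windows, 0 of the 8 passed at 6 h to 4 d, where 0% of all genes passed, at 5 to 8 d (0%) and at 9 to 14 d (0.269%), and none had an unadjusted p under 0.05. A window-by-loading term, which asks whether the leg difference itself changed between windows, also called 0 of 8 and 0% of all genes for each of the 3 pairs of windows. The 4 and 6 rats of the later windows leave wide intervals, so a difference could be missed.

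Ankrd1 had the largest mean leg difference of the 8 genes over all 23 rats, though not within 6 h to 4 d or 9 to 14 d, where that of Ankrd2 was larger. At 6 h to 4 d its level ran from 5.46 through a median of 7.67 to 9.94 in the unloaded legs, and from 5.99 through 7.93 to 12.49 in the loaded legs. At 5 to 8 d the unloaded legs of rats 41, 43, 53 and 55 measured 12.87, 10.44, 12.11 and 11.81, and their loaded legs 12.47, 12.09, 12.70 and 13.27. The loaded leg was the higher one in 3 of these 4 rats, and the ranges of the legs overlapped in every window. The lowest, median and highest levels of the last window were 10.22, 11.81 and 13.31 in unloaded legs and 9.93, 12.98 and 13.19 in loaded legs. The loaded leg was higher in 15 of 23 rats, and single differences ran from -1.30 in rat 19 to 2.63 in rats 27 and 51. All of these named rats are of uncertain pairing. The mean difference over all rats was 0.60 (SE 0.22, 95% interval 0.15 to 1.05, n = 23 pairs), with an adjusted p of 0.135 by limma. By window it was 0.50 (SE 0.30) at 6 h to 4 d, 0.83 (SE 0.55) at 5 to 8 d and 0.67 (SE 0.45) at 9 to 14 d. Single rats moved these values: the first was 0.32 without rat 27, the second 0.55 without rat 43 and 1.23 without rat 41, and the third 0.27 without rat 51. Within the third set of rats alone it was 0.84 (SE 0.33, 10 rats), with an adjusted p of 0.315. Without the 6 rats of uncertain pairing the mean over all windows was 0.55 (SE 0.21, adjusted p = 0.153 by limma).

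Ankrd2, the second ankyrin repeat gene, varied far more between legs than Ankrd1 but in no common direction. At 6 h to 4 d the lowest, median and highest levels were 6.12, 10.80 and 12.63 in the unloaded legs and 6.36, 9.93 and 12.45 in the loaded legs. In the last window they were 7.25, 8.68 and 12.25 in the unloaded and 6.25, 10.83 and 12.02 in the loaded legs. The leg difference ranged from -5.10 in rat 17 to 4.77 in rat 51, which are both rats of uncertain pairing. It had an SD of 2.19, and the loaded leg was higher in 11 of 23 rats. Its mean was 0.03 (SE 0.42, 95% interval -0.83 to 0.89), which in folds runs from 0.562 to 1.86 times the unloaded level. The mean difference was -0.56 (SE 0.54) at 6 h to 4 d, 0.13 (SE 0.98) at 5 to 8 d and 1.23 (SE 0.80) at 9 to 14 d. The step from the first to the last window was 1.79 (95% interval -0.20 to 3.78, adjusted p = 0.687 by limma). Leaving out the 6 rats whose pairing is uncertain, it was 0.45 (SE 0.78).

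The LIM-domain genes showed a like spread around zero. The Csrp3 leg difference ran from -3.58 in rat 17 to 3.08 in rat 37 and averaged 0.16 (SE 0.30, 95% interval -0.45 to 0.78), with the loaded leg higher in 15 of 23 rats. That of Fhl1 ran from -1.13 to 1.17 in the same rats and averaged -0.03 (SE 0.10, 95% interval -0.24 to 0.18). The extremes of both genes thus fell in the same animals, of which rat 17 is of uncertain pairing. At 5 to 8 d the loaded minus unloaded values of Csrp3 in rats 41, 43, 53 and 55 were 0.03, -0.05, 0.92 and 1.59, and those of Fhl1 were -0.24, -0.30, 0.48 and 0.63. Rats 53 and 55, which belong to the fifth set, were the higher ones for both genes.

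Nrap, Xirp2, Smpx and Mustn1 differed little between the legs. Their SDs over the 23 rats were 0.34, 0.18, 0.30 and 0.22, and the mean differences were 0.12 (95% interval -0.02 to 0.26), 0.01 (-0.07 to 0.09), -0.06 (-0.18 to 0.07) and -0.06 (-0.15 to 0.04). No bound of these intervals lay more than 0.26 from zero on the log2 scale. The largest leg differences of Nrap, 0.88, were in rat 43 at 5 to 8 d and rat 49 at 9 to 14 d. Mustn1 was lower in the loaded leg in 10 of 13 rats at 6 h to 4 d (mean -0.12, SE 0.06, adjusted p = 0.478 by limma) and higher in 4 of 6 at 9 to 14 d (mean 0.02, SE 0.09). For Xirp2 the leg difference at 5 to 8 d exceeded that at 6 h to 4 d by 0.21 (95% interval 0.01 to 0.42), with an unadjusted p of 0.0444 and an adjusted p of 0.828 by limma.

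**Figure D2:**
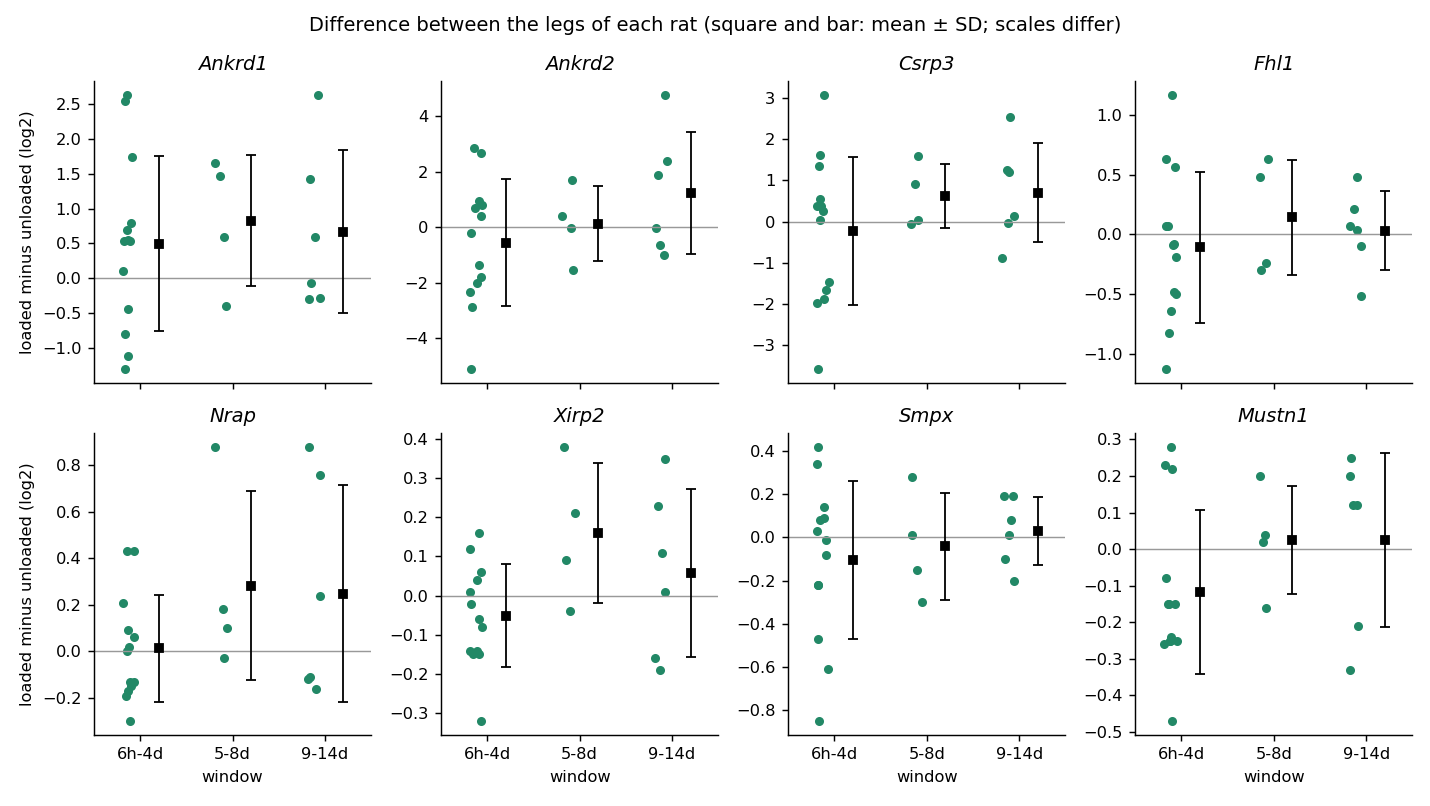
Loaded minus unloaded log2 expression in each rat (green dots, vertical axes with different scales) for the 8 genes by window, with the mean and SD of the rats as a black square and bar. Differences of Ankrd2 run from -5.10 to 4.77, those of Xirp2 stay within -0.32 and 0.38, and the bar of 1 SD crosses 0 in every panel and window.

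The leg differences of 3 of the genes correlated with those of slow-fibre genes. For this the mean of 11 measured slow-fibre contractile genes (of 12 listed, among them Myh7, the slow myosin heavy chain) was taken on each array. This mean itself differed between the legs of a rat by -3.96 (rat 17, of uncertain pairing) to 3.47 (rat 37). The average of this leg difference was -0.17 and its SD 1.89. Over the 23 rats the leg difference of Fhl1 correlated with it at r = 0.93 (Spearman 0.90), that of Ankrd2 at 0.88 (0.83) and that of Csrp3 at 0.88 (0.81). Without the 2 rats farthest from the median the r values were 0.88, 0.84 and 0.82. Within 6 h to 4 d alone (13 rats) they were 0.96, 0.96 and 0.90. At 9 to 14 d (6 rats) they were 0.94, 0.75 and 0.82, with lower Spearman values of 0.60, 0.49 and 0.43. For Nrap r was 0.51 over all rats, 0.85 (Spearman 0.86) at 6 h to 4 d and 0.50 (-0.09) at 9 to 14 d. Over all rats r was 0.40 for Smpx, 0.36 for Ankrd1, 0.10 for Mustn1 and -0.02 for Xirp2, and for Xirp2 it was -0.56 at 6 h to 4 d. Points of one rat share their pair of arrays and their normalization, and no p is given.

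**Figure D3:**
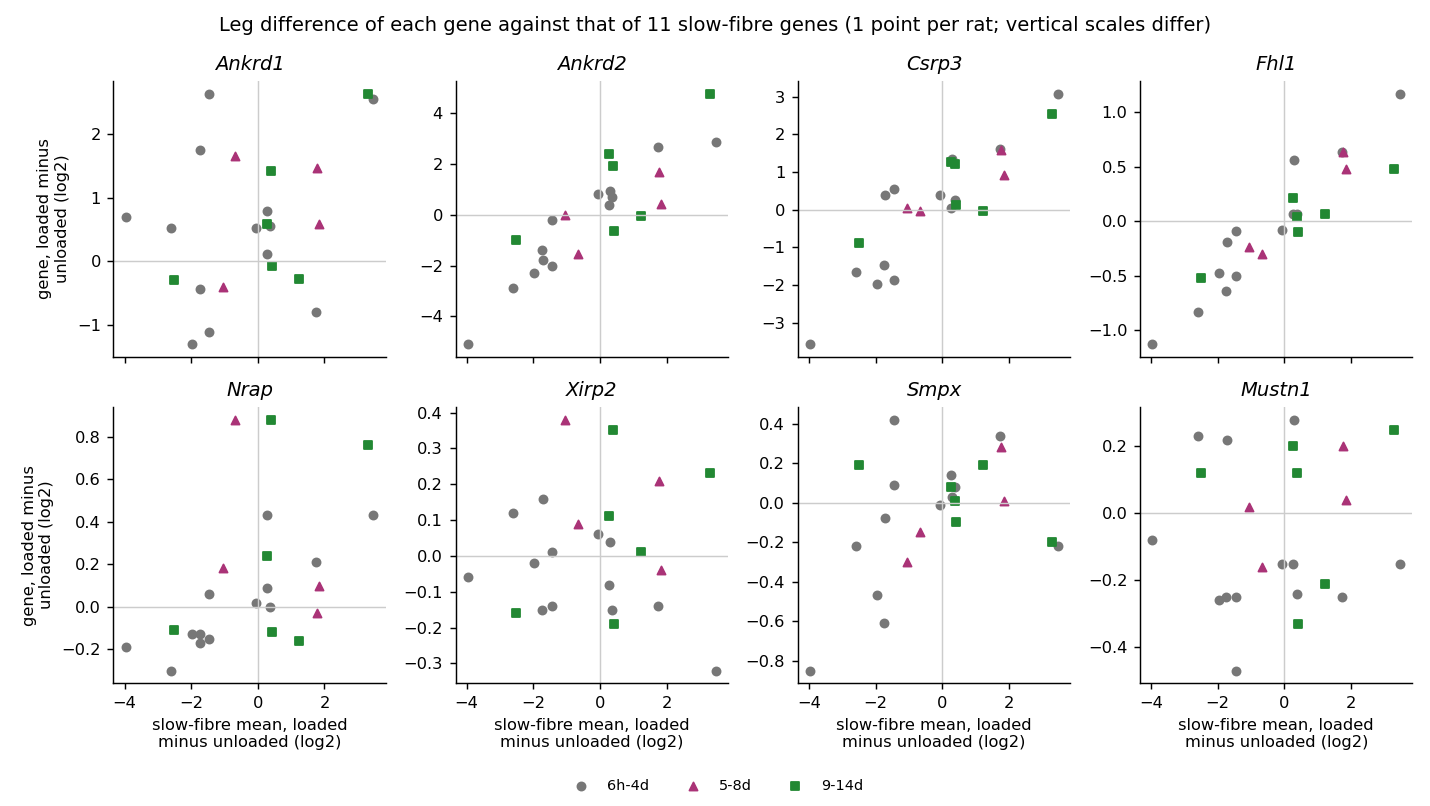
Leg difference of each gene (vertical axes, log2, scales differ) against the leg difference of the mean of 11 slow-fibre genes (horizontal axes, log2); each point is 1 of 23 rats, with shape and colour for the window. Fhl1, Ankrd2 and Csrp3 lie along a rising line (r = 0.93, 0.88 and 0.88), while Xirp2 and Mustn1 form clouds (r = -0.02 and 0.10).

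With the slow-fibre mean as a covariate beside the rat block, the error of these 3 genes shrank. The average leg difference was then 0.20 (SE 0.20) for Ankrd2, 0.28 (SE 0.14) for Csrp3 and 0.01 (SE 0.04) for Fhl1, and the Ankrd2 step from the first to the last window was 0.59 (SE 0.48) in place of 1.79. Ankrd1 kept 0.63 (SE 0.21, adjusted p = 0.0732 by limma). Still 0 of the 8 genes passed in any comparison of the legs. The cause of the slow-fibre differences between legs was not tested. Among the 28 pairs of the 8 genes the leg differences correlated between -0.08 and 0.92, with a median of 0.31, and the top pair was Ankrd2 with Csrp3.

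The comparison of windows asked how the genes changed as paralysis and ventilation went on. It was fitted once over the 23 unloaded legs and once over the 23 loaded legs, so that each rat gave a single array to a fit. In the unloaded legs at 5 to 8 d against 6 h to 4 d, 1 of the 8 genes rose (Ankrd1) and 1 fell (Xirp2), where 23.6% of all genes rose and 12.3% fell, 35.9% in all. At 9 to 14 d against 6 h to 4 d, 2 rose (Ankrd1 and Smpx) and 2 fell (Xirp2 and Nrap), where 28.7% of all genes rose and 16.9% fell, 45.6% in all. In the loaded legs 6 of 8 rose at 5 to 8 d, all but Ankrd2 and Xirp2, where 26.9% of all genes rose and 39.0% changed in either direction. By 9 to 14 d 5 of 8 rose (Ankrd1, Csrp3, Fhl1, Smpx and Mustn1), where 2696 of the 9289 genes rose and 44.2% changed in either direction. Cyclic loess normalization, an alternative scaling, ended the loaded calls of Nrap, Fhl1, Smpx and Mustn1 at 5 to 8 d (adjusted p from 0.0750 to 0.144) and of Fhl1 and Mustn1 at 9 to 14 d (0.109 and 0.0508). Under it the calls over all genes split at 5 to 8 d into 1606 higher and 1647 lower in the unloaded legs (2190 and 1147 as deposited) and 1724 and 1642 in the loaded legs (2503 and 1117). Those at 9 to 14 d split into 2243 and 2003 (2663 and 1569) and into 2122 and 1898 (2696 and 1414). The median difference of the 8 genes was 0.37 in both unloaded comparisons and 0.59 and 0.57 in the loaded ones, against 0.05, 0.07, 0.06 and 0.08 for all genes. Both later windows are set against the same 6 h to 4 d arrays, so these comparisons share their reference.

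Ankrd1 rose by 4.30 (SE 0.71, 95% interval 2.83 to 5.77) in the unloaded legs at 5 to 8 d, which is 19.7-fold (7.09 to 54.6), with an adjusted p of 9.79e-05 by limma. It rose by 4.63 (SE 0.79) in the loaded legs, 24.7-fold (adjusted p = 1.46e-04). These differences ranked first by size among 9289 genes in each leg. Later, at 9 to 14 d, it stood 4.29 (SE 0.62) higher in the unloaded and 4.46 (SE 0.69) higher in the loaded legs than at 6 h to 4 d, with ranks of 6 and 4. In the unloaded legs no level of a later window overlapped those of 6 h to 4 d, which was so for 8.44% of all genes at 5 to 8 d and for 9.87% at 9 to 14 d. In the loaded legs the ranges overlapped through rat 37, whose loaded leg measured 12.49 at 6 h to 4 d, where the next highest was 9.33. Between 5 to 8 d and 9 to 14 d the level stayed at 11.81 and 11.80 in the unloaded legs and at 12.63 and 12.47 in the loaded legs. In the order of the 6 group means only the step from the loaded legs at 6 h to 4 d (8.01) up to the unloaded legs at 9 to 14 d (11.80) exceeded the SDs of both groups. The rise passed with any 1 rat left out.

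Csrp3 stood higher in the later windows in both legs, and which leg passed depended on the fit: the loaded legs without, and the unloaded legs with, the code set as a block. In the loaded legs its level ran from 6.04 through 9.59 to 11.01 at 6 h to 4 d, was 12.65, 11.04, 12.41 and 11.78 in the 4 rats of 5 to 8 d, and ran from 8.93 through 12.36 to 12.86 at 9 to 14 d. The 4 rats of 5 to 8 d thus stood above all 13 earlier ones, which was so in either direction for 8.96% of all genes. The rise was 2.45 (SE 0.72, 5.48-fold, adjusted p = 0.0095 by limma) at 5 to 8 d and 2.32 (SE 0.62, 5.00-fold, adjusted p = 0.0042) at 9 to 14 d. In the unloaded legs the differences were 1.60 (SE 0.70, adjusted p = 0.0761) and 1.39 (SE 0.60, adjusted p = 0.0622). The rise in loaded legs exceeded that in unloaded legs by 0.85 (95% interval -0.83 to 2.52) and 0.93 (-0.51 to 2.38), and neither gap passed. With the set as a block the unloaded differences were 2.64 and 2.55 and passed (adjusted p = 0.0489 and 0.0138 by limma), while the loaded ones, 2.53 and 2.52, did not (0.130 and 0.0553). The unloaded value at 9 to 14 d was 0.61 with array quality weights and 0.70 without the fifth set. Without rat 47, or any of 4 other rats, the unloaded rise at 9 to 14 d passed (adjusted p from 0.0397). With the slow-fibre mean as a covariate the unloaded rise was 2.36 and 2.40 and passed in both windows (adjusted p = 1.42e-04 and 2.24e-05 by limma). The loaded rise was then 2.37 and 2.43 and passed as well (1.95e-04 and 1.61e-05). The slow-fibre mean itself stood lower in the later unloaded legs, with group means of 10.23, 9.22 and 8.88 (9.55, 9.68 and 9.40 in the loaded legs). The unloaded passes with the covariate hold that shift and are not separate support for a rise.

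Fhl1 was 0.68 (SE 0.26) higher in the loaded legs at 5 to 8 d and 0.57 (SE 0.23) higher at 9 to 14 d, 1.60-fold and 1.48-fold, with adjusted p of 0.0430 and 0.0450 by limma. These calls lie at the threshold, and were lost on leaving out any of 11 rats at 5 to 8 d (adjusted p up to 0.151) and any of 13 rats at 9 to 14 d (up to 0.126). In the unloaded legs Fhl1 stood 0.43 higher in both windows and did not pass, with adjusted p of 0.267 and 0.171. With the slow-fibre covariate its rise passed in both legs and windows, by 0.61 to 0.88, and the highest of the 4 adjusted p was 1.49e-04 by limma. As for Csrp3, the slow-fibre mean stood lower in the later unloaded legs, so the unloaded passes are not separate support for a rise. Ankrd2 passed in no comparison of windows as fitted. Its differences from 6 h to 4 d were 0.05 (SE 1.07) and -1.22 (SE 0.93) in the unloaded and 0.75 (SE 1.03) and 0.57 (SE 0.89) in the loaded legs. The unloaded value at 9 to 14 d depended on the setting. It passed as lower with array quality weights (-2.44, adjusted p = 0.0114 by limma) and without rats 35 and 37 (-1.94, 0.0348). Leaving out these rats of the earlier window raised the mean of that window and so enlarged the fall by itself. The pass without them therefore adds no support for a fall. The value turned to 0.70 with the set as a block and 0.37 with the slow-fibre covariate, and passed under neither.

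Smpx rose by 0.50 (SE 0.14, 1.41-fold, adjusted p = 0.0061 by limma) in the unloaded legs and by 0.63 (SE 0.14, 1.55-fold, adjusted p = 0.0010) in the loaded legs at 9 to 14 d. At 5 to 8 d it stood 0.39 higher in the unloaded (adjusted p = 0.0650, passing without rat 37 or rat 41) and rose by 0.45 in the loaded legs (adjusted p = 0.0325, lost without rat 53 or rat 55). Its levels at 9 to 14 d, 10.94 to 11.51 in unloaded and 11.01 to 11.44 in loaded legs, barely reached down to those at 6 h to 4 d, 9.97 to 10.99 and 10.06 to 11.02. Mustn1 rose by 0.49 (SE 0.17, lost without rat 41 or rat 53) and 0.45 (SE 0.15) in the loaded legs, and stood 0.35 and 0.31 higher in the unloaded legs without passing (adjusted p = 0.0940 and 0.0683). Its highest levels at 6 h to 4 d were in rats 35 and 37, at 13.31 and 13.65 in the unloaded and 13.59 and 13.50 in the loaded legs, within or above the range of the later levels. Without these 2 rats, both of the third set, the unloaded differences of Mustn1 were 0.45 and 0.41 and passed (adjusted p = 0.0093 and 0.0053). Leaving out the highest levels of the earlier window enlarges the difference by itself, so this pass adds no support for a rise.

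Xirp2 fell in the unloaded legs in both later windows. Its levels in the unloaded legs lay close together at 6 h to 4 d, from 12.89 to 13.11 with an SD of 0.07, and were 12.84, 12.44, 12.85 and 12.62 in the 4 rats of 5 to 8 d. All 4 thus lay below the 13 earlier ones, in a comparison where 8.44% of all genes did not overlap. The fall was -0.34 (SE 0.12, 95% interval -0.58 to -0.09, adjusted p = 0.0316 by limma), 1.26-fold lower, and it was lost without rat 43 or rat 55 (adjusted p up to 0.128). At 9 to 14 d it was -0.27 (SE 0.10, adjusted p = 0.0393), lost without any of 9 rats (up to 0.132). Other settings gave a larger fall in that window: -0.41 (adjusted p = 0.0032) with cyclic loess, -0.38 (0.0013) with array quality weights, -0.35 (0.0304) with the set as a block and -0.49 (4.54e-05 by limma) without the fifth set. There rats 57 and 59 of the fifth set measured 13.13 and 13.30, above the other 4 at 12.42 to 12.65. In the loaded legs the differences were -0.12 and -0.15 and did not pass. With the slow-fibre covariate the unloaded differences were -0.30 and -0.21 and did not pass (adjusted p = 0.0647 and 0.126).

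Nrap passed once in each leg, as higher in the loaded legs at 5 to 8 d and as lower in the unloaded legs at 9 to 14 d. In the loaded legs it rose by 0.33 (SE 0.11, adjusted p = 0.0200 by limma, lost without rat 41 or rat 55 and with the set as a block) at 5 to 8 d, where the 4 rats measured 13.46, 12.95, 12.85 and 13.16. At 9 to 14 d the 6 loaded legs ran from 12.12 to 12.84, so the groups did not overlap, which was so for 2.55% of all genes. That step from 5 to 8 d down to 9 to 14 d was -0.53 (SE 0.13, 95% interval -0.79 to -0.27) with an adjusted p of 0.0646, so it did not pass, and it passed without rat 43 or rat 45 (from 0.0276). None of the 8 genes passed between the later windows, in unloaded or in loaded legs, where 0.226% of all genes did in each, and Nrap was the one gene with an unadjusted p under 0.05 in each leg; in the unloaded legs it passed without rat 43 (adjusted p = 0.0315). In the unloaded legs Nrap fell by 0.43 on the log2 scale at 9 to 14 d against 6 h to 4 d (SE 0.16, adjusted p = 0.0346, lost without rat 47, 49 or 51 and with the set as a block), and at 5 to 8 d it stood 0.07 higher (adjusted p = 0.812). Rats 49 and 51, both at 11.79, were the lowest. In the loaded legs the difference at 9 to 14 d against 6 h to 4 d was also below zero, at -0.19 (SE 0.10, adjusted p = 0.105 by limma). That loaded difference passed as lower with cyclic loess (-0.30, adjusted p = 0.0179) and without rat 45 (-0.25, 0.0483).

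**Figure D4:**
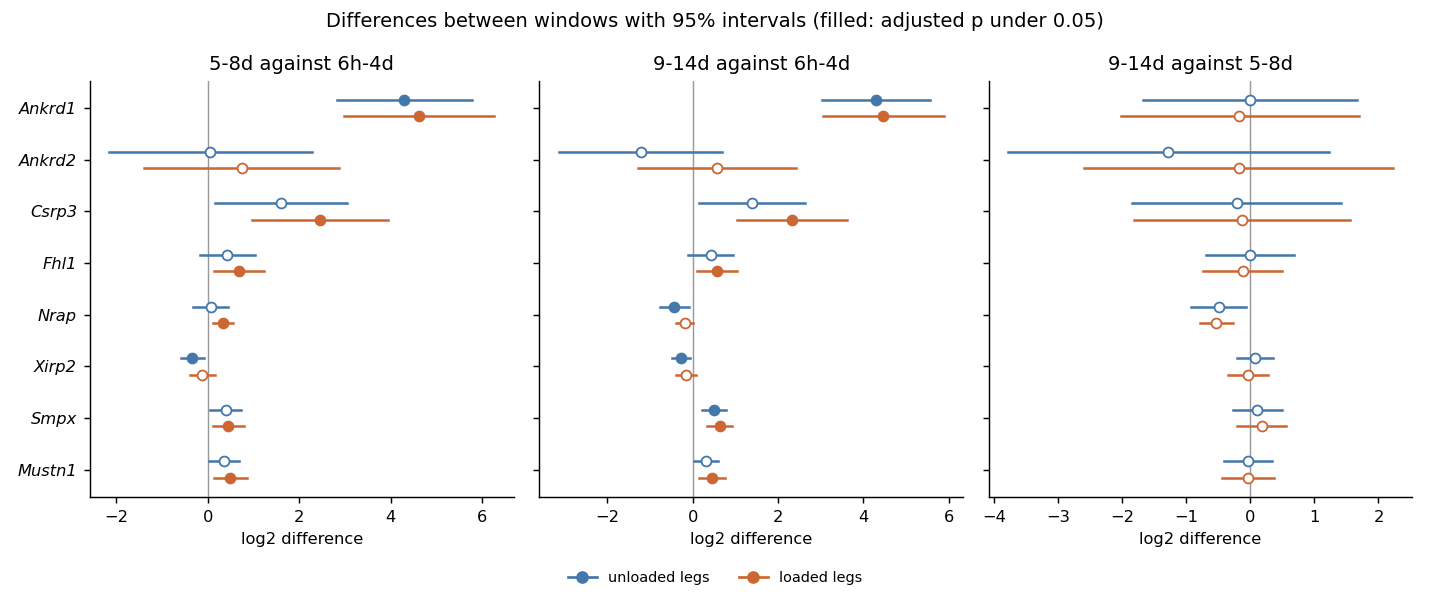
Log2 differences between windows (horizontal axes) for the 8 genes in unloaded (blue) and loaded (orange) legs with 95% intervals from limma; filled circles have an adjusted p under 0.05 over 9289 genes. Ankrd1 stands at 4.29 to 4.63 in the first 2 panels and near 0 in the third, where no circle is filled.

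Windows and the code sets of rats overlap, so the window differences were also read within the third set (4, 2 and 4 rats). There Ankrd1 stood 3.93 (SE 1.10) and 3.34 (SE 0.90) higher in the unloaded legs and 3.87 (SE 1.56) and 3.74 (SE 1.27) higher in the loaded legs. Of these 4 differences only that of the unloaded legs at 9 to 14 d passed, with an adjusted p of 0.0444 by limma. Csrp3 differed by 2.11 to 3.52, Smpx by 0.13 to 0.54 and Fhl1 by 0.46 to 1.19 across the same 4 comparisons. Mustn1 differed by only 0.02 to 0.26, and Ankrd2 by 0.10 to 2.90. Xirp2 differed by -0.33 and -0.44 in the unloaded legs (adjusted p = 0.339 and 0.0514 by limma) and by 0.00 and -0.21 in the loaded legs. Nrap differed by 0.05 and -0.52 in the unloaded and by 0.35 and -0.31 in the loaded legs. Apart from Ankrd1, none of the 8 genes passed within the third set. With the set as a block over all rats Ankrd1 passed in all 4, at 3.38 to 3.80, and the loaded calls of Csrp3, Fhl1 and Mustn1 were lost, as were both calls of Nrap (adjusted p = 0.317 loaded and 0.107 unloaded). In the unloaded legs the block added calls for Csrp3 in both windows and for Fhl1 at 9 to 14 d (0.95, adjusted p = 0.0240), and Xirp2 still passed in both (0.0217 and 0.0304 by limma). Smpx then passed only in the loaded legs at 9 to 14 d (0.49, adjusted p = 0.0498). Only the third set holds rats of both the earliest and the later windows. The fit with the set as a block thus draws its earliest-window reference from that set alone, and is not separate support. For every gene, Ankrd1 included, the set and the window can be told apart only in part.

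Markers of other cell types moved over the same windows, and their counts are read against the shares of all genes given above for the same comparisons. All 8 fibroblast markers were measured, and their mean ran from 8.17 to 9.93 in unloaded legs at 6 h to 4 d and from 7.85 to 8.18 at 5 to 8 d, where 7 of 8 fell (12.3% of all genes). At 9 to 14 d it ran from 8.23 to 9.49 and overlapped the first window. In the loaded legs it ran from 8.35 to 9.93, from 8.11 to 8.53 and from 8.26 to 10.14 in the 3 windows. Of 5 measured tendon markers 4 fell in each leg at 5 to 8 d, with median differences of -2.41 and -2.21, and their means ran from 6.93 to 9.61 and from 7.86 to 9.95 at 6 h to 4 d and from 6.28 to 7.95 and from 6.12 to 8.24 at 5 to 8 d. Of 8 measured smooth muscle and pericyte markers 4 and 5 fell in the unloaded legs at 5 to 8 d and 9 to 14 d. Of 10 measured fast-fibre genes 5 fell in the unloaded legs in each later window, and 3 and then 7 in the loaded legs. Of 10 macrophage markers 5 rose in the unloaded and 3 in the loaded legs at 9 to 14 d, with means of 7.54 to 9.74 and 7.23 to 9.31 against 7.14 to 8.29 and 7.11 to 8.54 before. Of all genes 28.7% rose in the unloaded legs and 2696 of 9289 in the loaded legs, so 3 of 10 lies near the share of all genes. Of 6 measured satellite cell and myogenic genes 5 rose in each leg at 9 to 14 d. Slow-fibre means ran from 6.48 to 11.65 in unloaded legs at 6 h to 4 d, from 8.64 to 9.71 at 5 to 8 d and from 6.84 to 10.81 at 9 to 14 d, when 4 of 11 slow-fibre genes fell (16.9% of all genes), and 0 of 11 changed in the loaded legs. The part of these shifts in the levels of the 8 genes was not tested, apart from the slow-fibre covariate.

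Among the partners of these proteins more genes passed as lower than as higher with time. Of 21 measured Z-disc, titin and stretch-sensing genes, 4 rose and 10 fell in each leg at 5 to 8 d, where 23.6% of all genes rose and 12.3% fell in the unloaded legs and 2503 rose and 1117 fell of 9289 in the loaded legs. In the last window 3 rose and 10 fell in the unloaded legs, where 28.7% of all genes rose and 16.9% fell. In the loaded legs 3 rose and 9 fell, where 2696 rose and 1414 fell of 9289. Between the legs 0 of 21 passed over all rats, where 2.33% of all genes did. Ldb3, a Z-disc PDZ and LIM protein, fell by 2.87 on the log2 scale in the unloaded and fell by 2.47 in the loaded legs at 5 to 8 d. Capn3, a titin-bound protease, fell by 1.98 in the unloaded and fell by 1.61 in the loaded legs. Trim55, a titin-binding ubiquitin ligase, rose by 1.34 and 1.08 at 9 to 14 d. Of 8 measured paralogs of the genes, Fhl3 had the largest changes and differed by -1.82 to -2.29 across the 4 comparisons, and its relative Fhl4 rose by 0.34 to 0.46.

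Genes of the signalling routes that respond to stretch gave a mixed picture. Of 13 measured YAP and TEAD target genes, 2 were higher in the loaded leg over all rats: Ccn2 by 0.88 (SE 0.15, adjusted p = 0.0067 by limma) and Ccn1 by 0.50 (SE 0.13, adjusted p = 0.0387), both matricellular proteins, where 0.850% of all genes were higher. Ccn2 was also higher at 9 to 14 d alone, by 1.32 (adjusted p = 0.0465). With time, 1 of the 13 rose and 2 fell in the unloaded legs at 5 to 8 d, where 23.6% of all genes rose and 12.3% fell. At 9 to 14 d 2 rose and 2 fell in these legs, where 28.7% of all genes rose and 16.9% fell. In the loaded legs 2 rose and 2 fell, and then 5 rose and 2 fell. There 2503 and then 2696 of all 9289 genes rose, and 1117 and then 1414 fell. Gadd45a, a stress and atrophy gene that this list also holds, rose by 2.20 to 2.55 in the 4 comparisons. Of 10 measured SRF and MRTF genes none rose, 1 fell at 5 to 8 d and 4 fell at 9 to 14 d in each leg, where 12.3% and 16.9% of all genes fell in the unloaded legs and 1117 and 1414 of 9289 in the loaded legs. Srf itself fell in all 4 comparisons, with differences of -0.31 to -0.48. Abra, a muscle activator of that route, fell by 1.82 in the unloaded legs and fell by 1.59 in the loaded legs at 9 to 14 d. Of 12 measured immediate early genes 0 passed between the legs over all rats, where 2.33% of all genes did. Jun and Atf3 rose in the unloaded legs at 9 to 14 d (0.55 and 0.77), where 28.7% of all genes rose.

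The genes whose patterns were most like those of the 8 were found by Pearson correlation over the 46 arrays and, for leg differences, over the 23 rats. The level of Ankrd1 ran closest to Gadd45a (0.91), Rcan1 (0.91) and Pvr (0.90), and its leg difference to Gadd45a (0.77), Gpr137 (0.75) and Osm (0.73). Ankrd2 lay closest to the slow-fibre genes Myoz2 (0.84), Tnnc1 (0.83) and Tnni1 (0.82) in level. In leg difference it lay closest to Myh10 (0.89), Tnnc1 (0.88) and Ppip5k1 (0.88). The leg differences of Csrp3 lay closest to Myoz2 (0.89), Tnnc1 (0.88) and Tnni1 (0.88), and those of Fhl1 to Tnni1, Atp2a2 and Tmbim1 (each 0.93). In level Csrp3 lay closest to Fhl4 (0.83), Myh10 (0.82) and Ppip5k1 (0.82), and Fhl1 to Fhl4 (0.86), Myh10 (0.84) and Hat1 (0.84). For Nrap the closest leg difference was that of Klhl41 (0.84), for Smpx Hddc3 (0.85), for Xirp2 Itgb1 (0.71) and for Mustn1 Cir1 (0.65). Arrays of one window share that window's shift, so correlations of levels hold the differences between windows given above.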

How the data were processed

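The deposited values are log2 expression per probe set from RMA by the authors, per the submitters' processing notes; its version is not given in the sources used here. The table holds 26208 probe sets on 46 arrays. Of these, 15088 name 1 gene, 323 several, and 10797 are not in the annotation used here. Probe sets were kept where 4 or more arrays read above that array's median, and for each gene the one with the highest mean, which left 9289 genes. Legs were compared with limma 3.58.1 (R 4.3.3, lmFit and eBayes) with the rat as a block over 46 arrays, and windows within 23 unloaded and 23 loaded legs, with Benjamini-Hochberg adjustment over all 9289 genes. Deviations of the legs of a rat from their group means correlated above 0.1 in 21 of 23 rats (median 0.60; 0.08 and -0.35 in the others), and the pairing rests on label numbers. P-values measure the spread between rats. Beyond the 8 genes, other genes are named as the up to 4 largest called differences of a list, the 2 largest where none was called, or the 3 most correlated. The genes and lists were chosen with earlier results of these data known. The fit was tested on simulated data. Motifs were searched in RefSeq sequence of GRCr8.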

Additional observations from a re-analysis of the deposited data

Results flagged for a closer look

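The loaded leg of rat 47 at 9 to 14 d stood far below the other 5 loaded legs of its window for 3 genes, by a gap past Dixon's critical value for 6 samples. Ankrd1 measured 9.93 there, where the next lowest leg measured 12.70 and the gap made up 0.848 of the range. Ankrd2 measured 6.25 against 10.58 (0.751 of the range), and Csrp3 8.93 against 11.86 (0.745). The unloaded leg of the same rat measured 10.22, 7.26 and 9.81 for these genes, and the loaded minus unloaded difference of its slow-fibre mean was -2.51. Of 48 groups tested 3 met the criterion, and chance alone marks about 1 in 20. Without rat 47 the leg difference at 9 to 14 d was 0.86 (SE 0.49) for Ankrd1, 1.68 (SE 0.86) for Ankrd2 and 1.02 (SE 0.63) for Csrp3, with adjusted p of 0.442, 0.385 and 0.477 by limma.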

How the results depend on the processing

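Over 3336 values of the 8 genes under 36 settings, 3217 kept their side of the threshold, 89 lost a call, 30 gained one and none reversed; 167 differences that passed under neither setting changed sign. The 3336 values count each rat left out in turn. The leg comparisons called 0 of the 8 genes under every setting run, among them no replicate block (legs unpaired), under which Ankrd1 over all rats was 0.60 (SE 0.40, adjusted p = 0.847 by limma); the pairing changed no call of the 8. For unloaded legs at 5 to 8 d the count of 2 became 4 with array quality weights, 0 in the third set alone and 4 without rats 35 and 37. At 9 to 14 d the count of 4 became 1 in the third set alone. Calls of Ankrd2 and Mustn1 were added in that window without rats 35 and 37, and a call of Ankrd2 with weights. Smaller changes of the counts are not all listed here. Between the later windows the unloaded count of 0 became 1 with weights. For loaded legs the count of 6 at 5 to 8 d became 2 with cyclic loess, 0 in the third set, 1 with the set as a block and 2 without the fifth set. The count of 5 at 9 to 14 d became 0, 2 and 3 under the last 3 of these. Leaving out the fifth set, and averaging the 3 window effects, were chosen after seeing the data. With 1 rat left out the counts ran from 1 to 4 and from 2 to 5 (unloaded, 5 to 8 d and 9 to 14 d), from 3 to 6 and from 4 to 5 (loaded), from 0 to 1 between the later windows in each leg, and were 0 to 0 for the legs. Over all genes the 216 calls between the legs of all rats became 473 with weights, 433 without rats 21 and 27, 429 with the slow-fibre covariate, 133 with no filter, 3 without the block and 1 in the third set. The 25 at 9 to 14 d became 122, 26, 55, 17, 2 and 0. Where 0 genes passed at 6 h to 4 d, 9 did with weights, 19 without rats 21 and 27, 2 without the 6 rats of uncertain pairing and 1 with the covariate. At 5 to 8 d 1182, 0, 1 and 5 passed, and at 9 to 14 d 6 without the 6 rats. The gaps between windows, 0 each, became 526 (5 to 8 d minus 6 h to 4 d), 1 (9 to 14 d minus 6 h to 4 d) and 5 (9 to 14 d minus 5 to 8 d) with weights. Window calls against 6 h to 4 d, 3337 and 4232 unloaded and 3620 and 4110 loaded, were 16, 904, 0 and 453 in the third set and 757, 2177, 850 and 1862 with the set as a block. Those at 5 to 8 d were 1356 unloaded and 1966 loaded without the fifth set, and 5375 unloaded with weights. The 21 between the later windows became 33 with cyclic loess, 2214 with weights, 128 with the covariate, 41 without rats 35 and 37 and 0 in the third set in unloaded legs, and 12 with no filter, 136, 40 and 53 (weights, covariate, without rats 35 and 37) and 0 both in the third set and without the fifth set in loaded legs. No filter ended both loaded calls of Fhl1 (adjusted p = 0.0567 and 0.0568 by limma), leaving out the fifth set those of Csrp3 (0.111 and 0.0528) and the unloaded call of Smpx at 9 to 14 d (0.0572). Ankrd2 was lower in unloaded legs at 9 to 14 d with weights (-2.44, adjusted p = 0.0114 by limma) and without rats 35 and 37 (-1.94, 0.0348). As said above, the pass without these rats adds no support for a fall. Rats 21 and 27 are those with the most alike pair of loaded arrays. The number of arrays limits the precision.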
